A study of Mus musculus with 6 samples.

Results

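Lilrb4a, Lilr4b and Cd300a encode immunoglobulin-superfamily receptors of myeloid cells. They were taken by gene symbol from the table of genes deposited for RANKL-induced BMMs, and they make up 3 of its 109 rows. BMMs are bone marrow macrophages, the precursors that fuse into osteoclasts when they receive the cytokine RANKL. The cells came from C57BL/6 mice and all carried the same RANKL stimulus of 30 ng/ml for 5 days. Control cells received no mogrol (3 libraries) and mogrol-treated cells received 20 μM mogrol, a triterpene aglycone of the mogrosides, over the same time (3 libraries). The comparison addressed how mogrol alters gene expression during osteoclast differentiation. The study's methods give 6-week-old C57BL/6J mice as the source of its BMMs and M-CSF as their growth factor, and say in general that data came from repeated independent experiments. Neither they nor the labels say how the 6 libraries map to mice or cultures. Every error below therefore measures the spread between libraries, which may in part be technical. Standard errors and p-values from the edgeR fit also draw on spread pooled over the 109 selected genes.

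Myeloid receptors of this kind come in activating and inhibitory forms. Most activating receptors pair with adaptor proteins that carry an immunoreceptor tyrosine-based activation motif (ITAM), some carry an ITAM-like motif themselves, and ITAM signals co-stimulate osteoclast differentiation beside RANKL. Inhibitory receptors carry an immunoreceptor tyrosine-based inhibitory motif (ITIM) in the cytoplasmic tail, which, once phosphorylated, recruits tyrosine phosphatases such as SHP-1 that damp ITAM signals. Lilrb4a encodes gp49B, an ITIM receptor for which the integrin αvβ3 is a known ligand. Lilr4b encodes gp49A, the neighbouring paralog with a nearly identical extracellular part. Cd300a encodes an ITIM receptor that binds phosphatidylserine and phosphatidylethanolamine on dying cells.

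The coding sequences were read to check the description of all 3 genes as inhibitory receptors. An ITIM was searched for as isoleucine, valine, leucine or serine, any residue, tyrosine, any pair of residues, then isoleucine, leucine or valine, in the tail that follows the most hydrophobic stretch of 19 residues. In the GRCm38 annotation (GENCODE M21), the principal Lilrb4a transcript encodes 335 residues with 2 ITIMs in a tail of 74 residues, starting at residues 298 and 320. The principal Cd300a transcript encodes 318 residues with 2 ITIMs in a tail of 113 residues, starting at residues 260 and 272. Lilr4b encodes 303 residues with a tail of 42 residues and 0 ITIMs in it. The same ITIM counts, by the same rule, held for each of the 3, 2 and 2 coding isoforms of Lilrb4a, Cd300a and Lilr4b. In the Lilrb4a isoform of 296 residues the rule set a tail of 140 residues, against 74 in the principal transcript. Where the tail of that isoform starts is therefore uncertain. The term inhibitory therefore held on this check for Lilrb4a and Cd300a and not for Lilr4b, and the genes are called by their names here. The stretches with the ITIM codons are shown to place the motifs, on the plus strand of GRCm38, with the 18 bases of each ITIM in capitals. The Lilrb4a stretch lies at chr10:51496009-51496223 and the Cd300a stretch at chr11:114899834-114901176, both as joined coding exons with the introns left out.
Lilrb4a: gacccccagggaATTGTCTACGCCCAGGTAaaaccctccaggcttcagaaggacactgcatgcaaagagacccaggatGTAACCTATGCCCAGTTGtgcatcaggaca
Cd300a: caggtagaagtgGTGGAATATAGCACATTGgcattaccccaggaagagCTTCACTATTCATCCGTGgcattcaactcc

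The Lilrb4a and Lilr4b coding sequences part at a run of C. Aligned, they were identical at 874 of 910 bases (96.04%), and the encoded proteins at 270 of 303 residues (89.11%). From coding base 882, Lilrb4a has 5 C and Lilr4b has 7 C. After the longer run, the Lilr4b frame closes at coding base 912, while the bases that encode the first ITIM of Lilrb4a remain nearly letter for letter in the Lilr4b exon but are read in another frame. The same stretch of both genes is shown with the C run in capitals, from coding base 852, on the plus strand of GRCm38 with the intron left out. The Lilrb4a stretch lies at chr10:51494833-51496032 and the Lilr4b stretch at chr10:51484557-51485760, where it ends with the stop codon.
Lilrb4a: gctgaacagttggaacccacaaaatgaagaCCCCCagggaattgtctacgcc
Lilr4b: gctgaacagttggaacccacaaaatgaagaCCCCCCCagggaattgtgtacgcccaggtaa

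Transcripts of all 3 genes were higher in mogrol-treated cells, Lilrb4a by 2.20-fold, Lilr4b by 2.32-fold and Cd300a by 2.66-fold. RPM below means reads of a gene scaled to a library of 1000000 reads. All 3 genes had an adjusted p-value under 0.05 in edgeR's quasi-likelihood test and a log2 fold change above 1, the rule for a call. By that rule 45 of the 109 genes (41.3%) were called higher, 62 (56.9%) lower and 107 (98.2%) in either direction, and the groups did not overlap in 109 of 109 (100%), 45 (41.3%) of them higher. Because the authors had selected all 109 genes for their difference between these same libraries, the 3 calls describe the genes and are not independent evidence that they changed. Scaling by the 109 genes themselves, most of which were lower with mogrol, raised all fold changes: with median-of-ratios size factors the log2 fold changes of Lilrb4a, Lilr4b and Cd300a were 2.11, 2.19 and 2.39, with 45 genes called higher and 8 lower, and with TMM factors 45 were called higher and 30 lower. In bulk RNA, more cells that express a gene and more RNA per cell cannot be told apart.

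**Figure D1:**
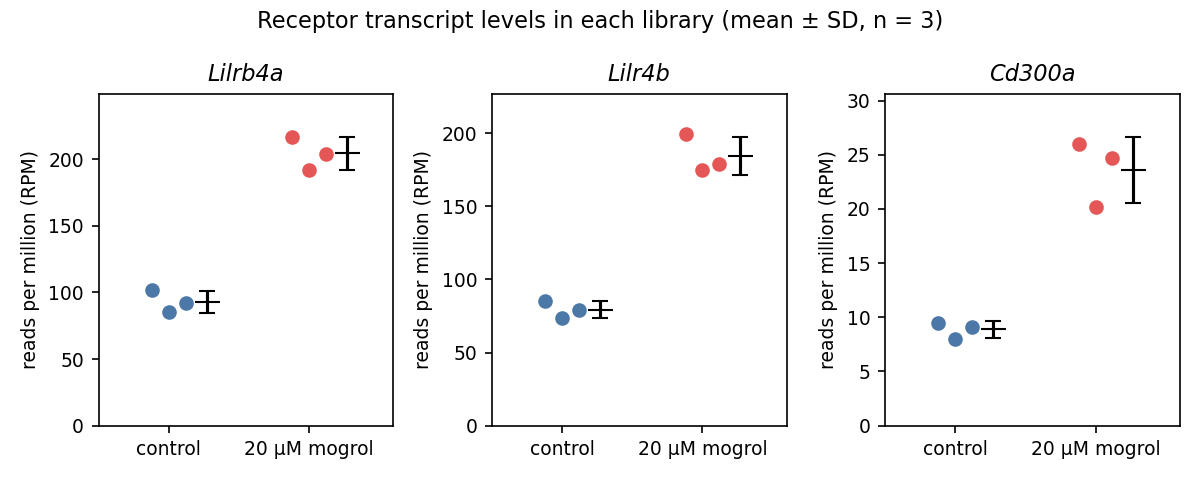
Each panel plots the RPM (vertical axis, starting at 0) of 1 gene in the 3 control and 3 mogrol libraries as points, with the mean and SD as a bar. The mogrol libraries lie above the control libraries in every panel, and the axis of Cd300a is much shorter than those of the other panels.

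Lilrb4a (ENSMUSG00000112148) lies on GRCm38 chromosome 10, 51490956 to 51496611, plus strand. Reads numbered 1880, 1587 and 1677 without mogrol against 4014, 3477 and 3747 with it. Scaled to library size these were 101.5, 85.1 and 92.1 RPM against 217.0, 192.1 and 204.0 RPM. The lowest mogrol library thus lay well above the highest control library. Mean RPM rose from 92.9 ± 8.24 to 204.3 ± 12.4 (SD, n = 3), and the log2 fold change was 1.14 (standard error 0.0853, edgeR adjusted p = 1.7e-33 over the 109 genes). Between libraries of one group the coefficient of variation was 8.87% and 6.08%, against 2.41% and 1.63% from counting error alone.

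Lilr4b (ENSMUSG00000112023) lies 4252 bases before Lilrb4a on the same strand, at chromosome 10, 51480632 to 51486703. Its libraries held 1577, 1374 and 1445 reads without mogrol and 3687, 3163 and 3288 reads with it. In RPM these were 85.1, 73.7 and 79.3 against 199.3, 174.8 and 179.0. Here too the groups did not overlap, and the control level was a little below that of Lilrb4a. The mean went from 79.4 ± 5.74 to 184.3 ± 13.1 RPM (SD, n = 3), and its log2 fold change was 1.22 (standard error 0.0863, edgeR adjusted p = 2.4e-36).

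Cd300a (ENSMUSG00000034652) lies on chromosome 11, 114890041 to 114904654, plus strand, and was the least abundant of the 3 genes. Its reads numbered 176, 150 and 166 without mogrol against 480, 365 and 454 with it, or 9.50, 8.04 and 9.12 RPM against 25.9, 20.2 and 24.7 RPM. The mogrol library with the fewest reads still had more than 2 times the reads of the highest control library. Mean levels were 8.89 ± 0.756 and 23.6 ± 3.04 RPM (SD, n = 3), and the log2 fold change was 1.41 (standard error 0.134, edgeR adjusted p = 1.1e-22). The coefficient of variation in control cells, 8.51%, was close to the 7.81% from counting error alone, while in mogrol-treated cells it was 12.9% against 4.81%.

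The libraries ranked alike for all 3 genes. Control library 1 was the highest and control library 2 the lowest of the control group, and mogrol library 1 was the highest and mogrol library 2 the lowest of the mogrol group. Over the whole table control library 1 was the highest in 43 of 109 genes (39.4%) and control library 2 the lowest in 42 (38.5%). For mogrol libraries 1 and 2 the numbers were 43 (39.4%) and 46 (42.2%). These are shares of each position alone, and the share of genes with the whole order is not given here. The whole order is not particular to the 3 genes. Of the genes named below, Slc11a1, Tlr13, Stap1 and Fcgr3 had it too, while Sema4a, Dok2 and Fgr were among those that did not.

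Among the 45 genes called higher, the log2 fold changes ran from 1.097 to 2.91 with a median of 1.31. Cd300a ranked 19th, Lilr4b 33rd and Lilrb4a 42nd by size, so the Lilr genes were among the smaller fold changes of these 45 genes. The ranking is by ratio and not by the rise in RPM. A test against a 2-fold change (edgeR's glmTreat), run on library totals, called 43 of 109 genes (39.4%) higher. All 3 genes passed, with adjusted p-values of 0.021 for Lilrb4a, 0.0027 for Lilr4b and 0.00075 for Cd300a. The 109 genes had been selected for the size of their change on these same libraries, so a pass was likely for any gene called higher. It is therefore not independent evidence that a change exceeds this limit. Under other scalings, for which the test was not run, the log2 fold change of Lilrb4a ran from 1.07 to 2.11.

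**Figure D2:**
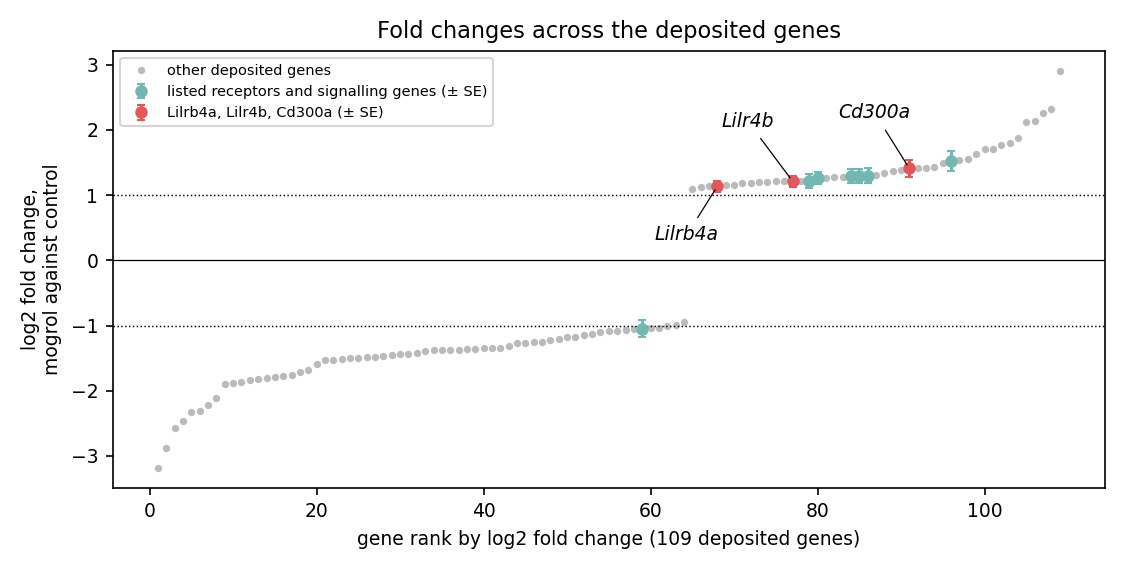
The log2 fold change of mogrol against control cells (vertical axis) is plotted for the deposited genes in order of size (horizontal axis, rank), with error bars of 1 standard error for the named genes. Lilrb4a, Lilr4b and Cd300a stand at 1.14, 1.22 and 1.41 within the 45 genes called higher, and Lat is the listed signalling gene that lies below 0.

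The order of the levels was read from FPKM, which the authors scaled by gene length and library size. Mean FPKM of Lilrb4a was 17.8 ± 1.58 without mogrol and 39.1 ± 2.38 with it (SD, n = 3). Lilr4b had 14.6 ± 1.06 and 33.9 ± 2.41 FPKM, and Cd300a 1.88 ± 0.159 and 4.99 ± 0.643 FPKM. In control cells these levels ranked 15th, 22nd and 71st among the 109 genes, and in mogrol-treated cells 10th, 12th and 42nd. Within each of the 6 libraries the order Lilrb4a, Lilr4b, Cd300a was the same. Lilrb4a exceeded Lilr4b by 1.19-fold (log2 FPKM ratio of Lilr4b to Lilrb4a, -0.24 ± 0.0498, SD, n = 6). Cd300a lay 8.64-fold below Lilrb4a (log2 ratio -3.11 ± 0.165) and 7.29-fold below Lilr4b (log2 ratio -2.87 ± 0.135). These means and SDs pool the control and mogrol libraries, so the SDs also hold any difference in ratio between the groups. Each of these 3 comparisons gave p = 0.03125 in a two-sided exact sign-flip permutation test over the 6 libraries, the smallest that 6 libraries allow, and 0.03125 after adjustment over the 3 pairs. The sizes rest on the deposited gene lengths. For Lilrb4a and Lilr4b these, 5227 and 5439 bases, are all annotated exons merged, while the principal transcripts have 1381 and 1836 bases. For Cd300a the values are 4738 and 4645 bases. With principal transcript lengths, a setting chosen after the data were seen, Lilrb4a exceeded Lilr4b by 1.51-fold and Cd300a by 32.1-fold, and Lilr4b exceeded Cd300a by 21.2-fold.

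The ratio of reads between a pair of the genes within a library cancels the library scaling and was not used in selecting the genes. The reads of Lilr4b per read of Lilrb4a were 0.839, 0.866 and 0.862 without mogrol and 0.919, 0.910 and 0.878 with it. The groups did not overlap but lay close together. The mean log2 ratio was higher with mogrol by 0.08 (standard error 0.0246, 90% interval 0.02 to 0.13).
The ratios of Cd300a to either Lilr gene were also higher with mogrol on average. Its reads per read of Lilrb4a were 0.0936, 0.0945 and 0.0990 without mogrol and 0.120, 0.105 and 0.121 with it, a log2 difference of 0.27 (standard error 0.0706, 90% interval 0.08 to 0.37). Per read of Lilr4b they were 0.112, 0.109 and 0.115 against 0.130, 0.115 and 0.138, a log2 difference of 0.19 (standard error 0.0791, 90% interval 0.01 to 0.34). In both ratios mogrol library 2 lay nearest to the control libraries. The order of the 3 fold changes depended on the scale: with limma on log2(FPKM + 1), which understates the change of low genes, Cd300a had 1.05 against 1.096 for Lilrb4a and 1.16 for Lilr4b. All 3 pairs gave p = 0.1 in a two-sided exact permutation test, and 0.1 after adjustment over the 3 pairs. With 3 libraries against 3 the test cannot go below 0.1, so none of the 3 differences in response could pass a threshold of 0.05.

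**Figure D3:**
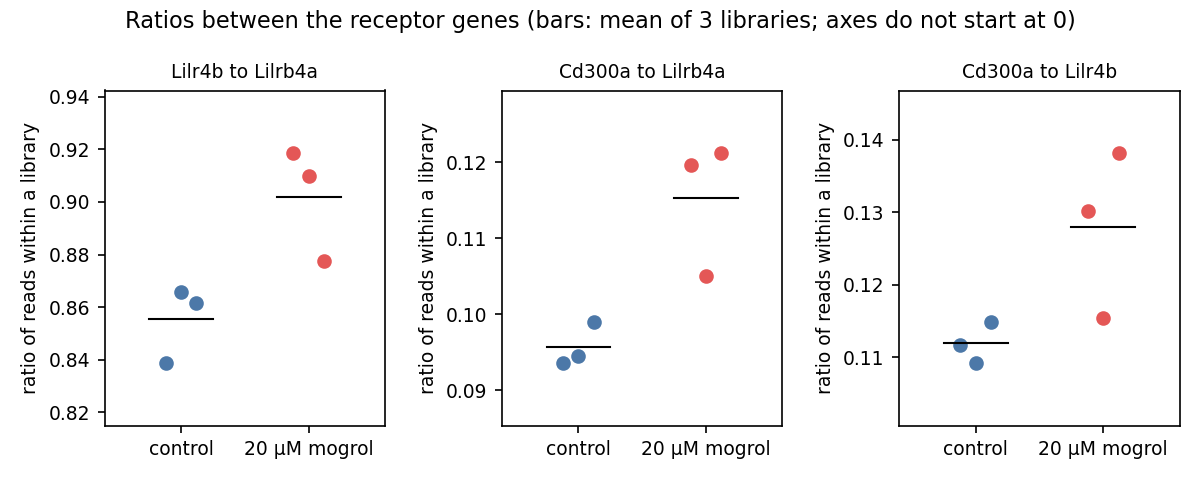
Each panel plots the ratio of reads between a pair of genes within a library (vertical axis, not starting at 0) for the 3 control and 3 mogrol libraries, with bars at the group means. The mogrol ratios lie above the control ratios in all 3 panels, by 0.08, 0.27 and 0.19 on the log2 scale, and the lowest mogrol library lies closest to the highest control library for Cd300a to Lilr4b.

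The separate values of Lilrb4a and Lilr4b depend on how reads were assigned at their locus. Of the windows of 50 bases in the principal Lilrb4a transcript, 27.8% also occur in a Lilr4b transcript letter for letter, and of those of 150 bases 7.47% do. In the principal Lilr4b transcript the shares were 22.9% and 5.45%. Cd300a shared 0 windows with Lilrb4a at either length. The read length is not given in the sources used here. The annotated protein-coding gene Gm49339 (chromosome 10, 51480612 to 51496613, plus strand) runs through both Lilr genes. It shares 1846 of the 5227 exonic bases of Lilrb4a (35.3%) and 122 of the 5439 of Lilr4b (2.24%). Of the principal coding sequence, 974 of 1008 bases of Lilrb4a (96.6%) lie in exons of Gm49339, against 34 of 912 bases of Lilr4b (3.73%) and 0 of Cd300a. The antisense gene Gm40645 overlaps 131 exonic bases of Lilrb4a (2.51%), part of which also lie in exons of Gm49339. The counting program, HTSeq, can set aside or split reads in such overlaps, but its mode and use of strand are not given in the sources used here, so the difference between the 2 Lilr genes in level and in response is uncertain. Their reads summed into 1 gene gave a log2 fold change of 1.17.

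**Figure D4:**
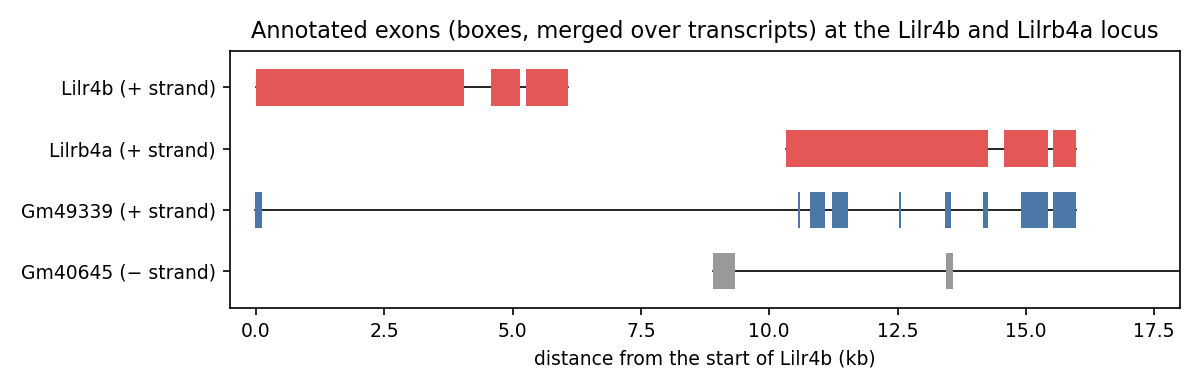
Exons (boxes, merged over transcripts) of Lilr4b, Lilrb4a, Gm49339 and Gm40645 are drawn to scale against the distance from the start of Lilr4b in kb (horizontal axis), with the strand of each gene beside its name. Exons of Gm49339 cover 35.3% of the exonic bases of Lilrb4a and 2.24% of those of Lilr4b, and Gm40645 continues beyond the right edge.

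No other deposited gene lay near these loci. The nearest on chromosome 10 was Col10a1, 17.1 Mb from the Lilr genes, and the nearest to Cd300a on chromosome 11 was Card14, 4.4 Mb away. Promoters were compared with the RefSeq table for GRCm38.p6, in which 2 of the 3 genes, Lilr4b and Cd300a, were matched. The bases before the Cd300a start are shown because they hold letters of motifs of myeloid and osteoclast factors, at chr11:114889791-114890040, plus strand, with the matches in capitals.
Cd300a: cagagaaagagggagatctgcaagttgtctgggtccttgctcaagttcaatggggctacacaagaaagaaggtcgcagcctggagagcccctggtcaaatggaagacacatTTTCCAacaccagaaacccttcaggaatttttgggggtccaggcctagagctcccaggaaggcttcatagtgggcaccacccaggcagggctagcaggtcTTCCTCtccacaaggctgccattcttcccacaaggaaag
The first match is the NFAT core TGGAAA and the second the PU.1 core GAGGAA, each read on the minus strand. Searched on both strands, these letters occur in 18.6% and 23.3% of the 32851 promoters in the table. AP-1 (TGANTCA, 6.75% of promoters) had 0 matches before Cd300a, and none of the 3 motifs had a match before Lilr4b. A match of letters is a description of the sequence only.

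Other receptors and signalling genes of the same pathway were looked up in lists of textbook members, of which few are among the 109 genes. Their calls are to be read against the table as a whole, all of it selected for change, in which 41.3% of genes were called higher and 56.9% lower. Those that are not were not analysed here. Of 19 other inhibitory receptors 1 was among the 109 genes, the collagen receptor gene Lair1, and it was called higher. Lair1 had 262 to 293 reads without mogrol and 608 to 760 with it, with a mean of 15.2 ± 0.751 against 37.3 ± 3.74 RPM (SD, n = 3) and a log2 fold change of 1.29.
Of 24 listed receptors that signal through an ITAM adaptor or an ITAM-like motif of their own, 3 were among the 109 genes. These 3 were called higher, in a table with 41.3% higher and 98.2% called in either direction. Clec5a, a DAP12-coupled lectin gene, had 39.99 ± 3.15 RPM without mogrol and 95.9 ± 1.06 with it (log2 fold change 1.26). Clec7a, the gene of the β-glucan receptor dectin-1, which has an ITAM-like motif in its own tail, had 5.90 ± 1.12 and 17.01 ± 1.35 RPM (1.53). Fcgr3, an Fc gamma receptor gene, measured 15.5 ± 2.01 and 36.1 ± 4.496 RPM (1.22).
Of 22 listed genes of ITIM and ITAM signalling, 3 were among the 109 genes. Of these, 2 were called higher and 1 lower, against 45 higher and 62 lower of 109. The Src-family kinase gene Fgr had 19.7 ± 2.92 RPM without mogrol and 48.4 ± 5.89 with it (log2 fold change 1.30). Dok2, whose product is an adaptor that attenuates tyrosine kinase signals, had 16.8 ± 1.97 and 41.5 ± 2.92 RPM (1.30). Lat, the gene of a scaffold of ITAM signalling in T cells and mast cells, fell from 23.4 ± 0.831 to 11.3 ± 1.25 RPM (-1.05). None of 4 listed ligand genes of Lilrb4a was among the 109.

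The deposited annotation set the genes within a wider group. It places Cd300a in the negative regulation of mast cell degranulation and in phosphatase binding, and gives the Lilr genes no biological process. Both Lilr genes carry one KEGG orthology entry that no other deposited gene has, and all 3 genes carry the GO terms for plasma membrane and for integral component of membrane. Of the 11 other genes with both terms, 9 were called higher and 2 lower, with a median log2 fold change of 1.21. Over all 109 genes 45 were called higher and 62 lower, with a median of -1.09. The 2 lower genes were Dio3, a thyroid hormone deiodinase gene, and Adgrb1, an adhesion G protein-coupled receptor gene.

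The genes with the most similar pattern over the 6 libraries were found from log2 RPM centred on each gene's own mean, by the root mean square difference over libraries. For Lilrb4a these were Slc11a1 (0.0200), which encodes the phagosomal metal transporter NRAMP1, Sema4a (0.0447), which encodes a semaphorin, and Lilr4b (0.0453), against a median of 1.13 over the 108 other genes. Slc11a1 had 63.4 ± 6.25 RPM without mogrol and 139.4 ± 11.1 with it, and Sema4a had 10.8 ± 1.22 and 24.2 ± 1.31. For Lilr4b the nearest were Tlr13 (0.0422), a gene of an endosomal receptor for bacterial RNA, Lilrb4a (0.0453) and Slc11a1 (0.0471). Tlr13 had 30.6 ± 3.26 RPM without mogrol and 74.0 ± 5.03 with it.
For Cd300a the nearest were Stap1 (0.0838), which encodes a signal-transducing adaptor, Dok2 (0.0869) and Fgr (0.0896). Stap1 had 7.01 ± 0.621 RPM without mogrol and 18.7 ± 3.601 with it. Lilr4b ranked 9th and Lilrb4a 14th from Cd300a, while Cd300a ranked 22nd from Lilrb4a and 20th from Lilr4b. The Lilr genes therefore resembled each other more than they resembled Cd300a. Closeness of this kind rests mainly on a similar fold change, and genes of the same libraries are not independent.

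**Figure D5:**
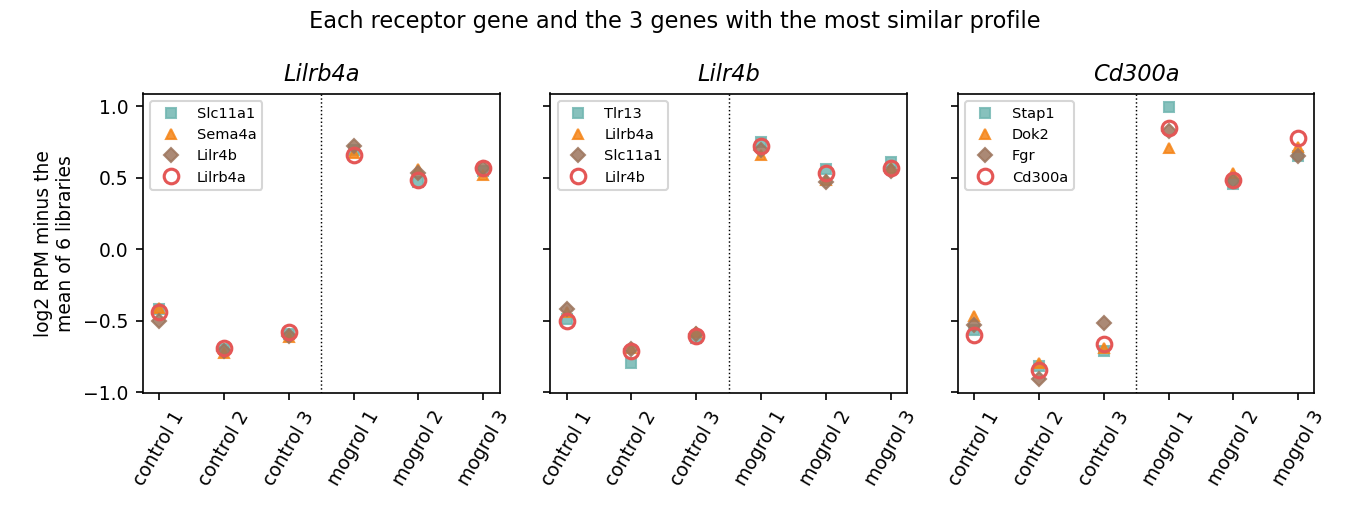
Log2 RPM centred on each gene's own mean over the 6 libraries (vertical axis) is plotted for Lilrb4a, Lilr4b and Cd300a and for their nearest genes across the libraries (horizontal axis). The points of Lilrb4a and Slc11a1 nearly coincide (root mean square difference 0.0200), while Cd300a moves farther than the Lilr genes between the groups.

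Markers of the cell types that the cultures could hold were looked up among the 109 genes. All 109 had been selected for a difference between these libraries, with 41.3% called higher and 56.9% lower. A listed marker found there was therefore bound to differ. The macrophage marker among the 109 genes, Cx3cr1 (1 of 9 listed), was 66.2 to 97.2 RPM in the control libraries and 196.3 to 225.2 in the mogrol libraries. The dendritic cell marker among them, Itgax (1 of 6), was 14.7 to 17.8 and 36.9 to 39.3 RPM. The osteoclast markers Ctsk and Ckb (2 of 12) summed to 12510 to 13970 RPM without mogrol and 6117 to 6460 with it. The stromal markers Col3a1, Postn, Thbs2, Aspn and Igfbp5 (5 of 10) summed to 1381 to 1422 and 546.1 to 587.9 RPM. The T and NK cell markers Thy1 and Lat (2 of 7) summed to 27.6 to 28.6 and 11.8 to 14.4 RPM. None of the 7 mast cell, 8 neutrophil or 3 B cell markers was among the 109 genes, and neither were the other listed markers, so they were not analysed here and the label of the cells could be checked against few genes. The part of any change in cell makeup in the higher Lilrb4a, Lilr4b and Cd300a levels was not tested.
The library totals behind the deposited FPKM, recovered from the deposited values, were 18097882 to 18652439 reads in the 6 libraries. Which reads the authors counted in these totals is not given in the sources used here. The 109 genes took 2.04% to 2.27% of these totals in control cells and 1.21% to 1.25% in mogrol-treated cells.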

How the data were processed

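RNA-seq of 3 control and 3 mogrol libraries was analysed from 1 deposited table of 109 genes, which the authors had selected on these libraries. Per the labels' processing notes, the submitters used cutadapt 1.9.1, HISAT2 2.0.1 and HTSeq 0.6.1 on GRCm38. The deposited counts are raw reads per gene. The deposited FPKM are counts scaled by gene length and library size. The deposited mean normalized count is a signal averaged by the authors over the 6 libraries. The authors' log2 fold changes, their standard errors, test statistics and p-values were not used.

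Library totals were recovered from counts, FPKM and length, to within 36 reads. Counts were tested with edgeR 4.0.16 (quasi-likelihood, R 4.3.3) on these totals, with no filter or covariate and Benjamini-Hochberg adjustment over the 109 genes. Pairs of libraries within a group differed beyond sampling noise (chi-square over its degrees of freedom, 5.23 to 40.9), and each was counted as 1 sample. The scripts were tested on simulated counts. Alternatives used DESeq2 1.42.0, limma 3.58.1, other scalings, a replicate block and each library left out. The interval of a ratio inverts the exact permutation test. Genes named are the 3 receptors, listed pathway genes and markers, genes that share a deposited orthology entry, and the 3 nearest patterns of each receptor. Members and lists were chosen with earlier results of these data known. All 109 identifiers were in GENCODE M21, 107 at the same coordinates. Sequences are from GRCm38 and RefSeq.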

Additional observations from a re-analysis of the deposited data

How the results depend on the processing

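Lilrb4a, Lilr4b and Cd300a kept their direction and their call under every alternative run. The 109 genes had been selected on these same libraries, and most alternatives still called 45 genes higher. A kept call is therefore not particular to the 3 genes. Their log2 fold changes ran from 1.08 to 1.21, 1.16 to 1.27 and 1.34 to 1.51 when any 1 library was left out, and those of the 3 ratios from 0.06 to 0.10 (Lilr4b to Lilrb4a), 0.23 to 0.33 (Cd300a to Lilrb4a) and 0.13 to 0.26 (Cd300a to Lilr4b). The levels per length kept their direction, with log2 ratios of -0.26 to -0.23, -3.15 to -3.08 and -2.91 to -2.84, but with 5 libraries the sign-flip test cannot go below an exact p of 0.062, so none could pass. With principal transcript lengths the log2 ratios were -0.60, -5.003 and -4.40. Scaling moved the 3 fold changes together. Size factors implied by the deposited mean counts gave 1.07, 1.146 and 1.34 (median of all genes shifted by -0.07), with 45 genes higher and 64 lower. TMM over the deposited genes gave 1.57, 1.65 and 1.84 (median of all genes shifted by 0.43), with 45 genes higher and 30 lower (60% of the calls higher, against 42.1%). Median-of-ratios size factors gave 2.11, 2.19 and 2.39 (shift 0.98), with 45 higher and 8 lower (84.9%). The limma fit on log2(FPKM + 1) gave 1.096, 1.16 and 1.05, with 25 genes higher and 27 lower. The size of the adjusted p-values depended on the test. For Lilrb4a, Lilr4b and Cd300a they were 6.6e-22, 1.4e-25 and 1.5e-19 in DESeq2. In limma on log2(FPKM + 0.1) they were 1.3e-05, 1.1e-05 and 1.2e-05. With a library left out, 45 genes were called higher and 60 to 63 lower. With the replicate number as a block, the log2 fold changes were 1.14, 1.22 and 1.41 and no call changed. Same-numbered libraries correlated at 0.0839, 0.197 and 0.0666 in their deviations over the 109 genes. These values cannot settle whether the libraries were paired, which the labels do not say. The main fit treated them as unpaired. Cd300a rests on 150 to 480 reads a library. Genes outside the 109 were not analysed here.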
